A study of Homo sapiens with 8 samples.

Results

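The genes described here are 54 DNA replication and G1/S genes, listed by name for their roles in the replication machinery and its control. They are 54 of the 58828 genes in the count tables, and all 54 were among the 22418 genes abundant enough to be tested. RNA-seq was done on human prostate cancer cells of 2 lines, 22RV1 and DU145, carrying an empty vector or PAGE4, a stress-response protein of the cancer/testis antigen family, and given PBS or H2O2 for 12 h, with 1 library per condition and 8 in all. Both are established prostate carcinoma lines, and DU145 cells carry a mutated RB1. The 8 groups were 22RV1 Vector with PBS, 22RV1 Vector with H2O2, 22RV1 PAGE4 with PBS, 22RV1 PAGE4 with H2O2, and the same 4 in DU145. The H2O2 dose was 200 mM as the labels write it. By the study's methods, HA-tagged PAGE4 sat in a doxycycline-inducible lentiviral vector, the cells were selected with puromycin, and every transduced culture, vector cells included, received doxycycline. A line with a construct is therefore 1 selected culture, and its PBS and H2O2 libraries form a pair.

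Replication origins are licensed in G1, when ORC, CDC6 and CDT1 load the MCM2 to MCM7 ring onto DNA, and geminin blocks further loading. At the start of S phase CDC45 and the GINS complex turn the ring into a moving helicase, and polymerases, the PCNA clamp and its RFC loader, DNA ligase and a supply of nucleotides complete the fork. Many of these genes are transcribed at the G1/S boundary by E2F factors, which RB holds in check until cyclin-dependent kinases phosphorylate it, and most of the proteins are needed by every dividing cell.

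Levels are in CPM, the usual measure of a gene's share of a library's counts, after TMM scaling over the 8 libraries, and pairs of values are given for vector cells first and PAGE4 cells second. The libraries held 25482984 to 43310401 counts, the lowest count of a member in any library was 127, and member levels ran from 4.02 to 769 CPM. PAGE4 itself had 0 to 1 counts in the 4 vector libraries and 1001 to 1489 in the 4 PAGE4 libraries, as the labels say. Of the markers listed for 22RV1, HOXB13 stood at 192 and 220 CPM with PBS and 78 and 105 CPM with H2O2 in that line and at 0 to 0.133 CPM in DU145, and TRPM8 was near 0 in both lines. The 8 listed for DU145 summed to 1190 to 1400 CPM there and 315 to 438 CPM in 22RV1, with KRT5 near 0 in both lines. CD44 and LGALS1 were abundant in both lines, and higher in 22RV1 than in the matched DU145 libraries. EGFR stood at 206 and 46.6 CPM in 22RV1 with PBS and at 273 and 279 CPM in DU145 with PBS. The 10 markers of other cell types summed to 7.5 to 51.4 CPM, mostly COL1A1 and ALB, with PTPRC, CD3E and DES near 0. Mitochondrial genes took 12.3% and 10.2% of 22RV1 counts with PBS and 9.19% and 8.97% with H2O2, and 16.5% and 14.6% against 11.2% and 10.9% in DU145. In DU145 MT-RNR1 alone took 1.04% and 0.904% with PBS and 4.32% and 4.54% with H2O2. These shares and HOXB13 in 22RV1 moved with H2O2, and the part of HOXB13 in the results was not tested. With mitochondrial genes left out of the scaling, the member counts given below for H2O2 in each line were the same.

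The promoters of 6 members are shown because they carry matches to E2F-type motifs and belong to genes whose responses to H2O2 differed between lines (CDC25A, MCM7, UHRF1, MCM6) or fell in both (E2F1, POLA2). Each is the 110 bases directly before the RefSeq start in GRCh38.p14, read 5′ to 3′ on the gene's strand, with the match in capitals. CDC25A lies at chr3:48188418-48188527 on the minus strand, MCM7 at chr7:100101398-100101507 minus, UHRF1 at chr19:4909391-4909500 plus, MCM6 at chr2:135876444-135876553 minus, E2F1 at chr20:33686386-33686495 minus and POLA2 at chr11:65261852-65261961 plus. In GENCODE v44 the CDC25A, MCM6 and E2F1 stretches end where the gene starts, the POLA2 stretch runs into the gene's first bases, and the MCM7 and UHRF1 stretches lie within the outer bounds of their genes.
CDC25A: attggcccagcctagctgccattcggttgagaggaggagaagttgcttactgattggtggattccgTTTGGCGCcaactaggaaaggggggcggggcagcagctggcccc
MCM7: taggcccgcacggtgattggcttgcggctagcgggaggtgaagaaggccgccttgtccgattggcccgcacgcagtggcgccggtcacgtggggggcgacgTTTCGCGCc
UHRF1: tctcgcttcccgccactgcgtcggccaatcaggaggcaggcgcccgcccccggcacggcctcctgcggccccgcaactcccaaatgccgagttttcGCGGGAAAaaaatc
MCM6: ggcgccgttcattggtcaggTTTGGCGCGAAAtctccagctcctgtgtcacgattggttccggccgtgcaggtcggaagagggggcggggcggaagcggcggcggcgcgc
E2F1: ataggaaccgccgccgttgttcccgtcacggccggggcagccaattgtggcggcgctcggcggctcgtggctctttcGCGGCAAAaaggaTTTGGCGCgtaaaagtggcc
POLA2: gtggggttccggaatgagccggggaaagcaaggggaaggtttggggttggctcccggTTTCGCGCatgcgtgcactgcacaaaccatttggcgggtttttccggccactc

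The motifs searched were TTTCCCGC, TTTGGCGC, TTTCGCGC and TTTGCCGC on both strands, over 250 bases before to 50 after each start, and matches on opposite strands can overlap, as in MCM6. Of the 54 members 47 had an entry in the RefSeq promoter table, the others being MCM4, MCM5, GINS4, POLD3, RPA2, RPA3 and CCNE2. A match was present in 23 of the 47 (48.9%), against 908 of all 27305 promoters in the table (3.33%) and 4.85% of the 12255 promoters of tested genes. By motif, TTTCCCGC was in 23.4% of member promoters and 1.66% of all, TTTGGCGC in 21.3% and 0.659%, TTTCGCGC in 10.6% and 0.546%, and TTTGCCGC in 2.13% and 0.564%. Matches were held by 7 of the 10 members with an entry that were higher with H2O2 in DU145, 8 of the 18 that were lower and 8 of the 19 that passed neither way. A match describes letters in a window and does not show binding.

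Most of these genes were lower with H2O2 in 22RV1, and in DU145 they were called in both directions. In 22RV1, 42 of the 54 members were lower with H2O2 at an adjusted p under 0.05 (edgeR quasi-likelihood test, Benjamini-Hochberg over all genes tested), against 14.9% of all genes tested that were lower and 12.8% that were higher. The members are well expressed, and of the 10283 genes that averaged 10 CPM or more over the libraries, all 54 among them, 24.2% were lower. The median log2 fold change of the members was -0.55, against -0.002 over all genes tested. CDC25A alone had a positive value in 22RV1, 0.07 ± 0.12 (SE) with an edgeR adjusted p of 0.702. In both cultures 48 of the 54 were below their PBS partner, against 8294 of all 22418 genes tested. In DU145, 21 members were lower (38.9%) and 11 higher (20.4%), against 19.8% and 16.9% of all genes tested and 31.3% and 28.8% of the well expressed ones. The DU145 shares were near those of the well expressed genes, so the counts alone say nothing particular about the members there, and their median was -0.09. Counts by role, given below, rest on 3 to 11 genes each and stand beside the same shares. The shares higher in DU145 were near 28.8% for licensing (36.4%) and for clamp and loader, G1/S regulators and fork protection (33.3% each). Both DU145 cultures moved the same way in 45 of 54 members (83.3%), 28 down and 17 up, against 74.4% of all genes tested. Members took 0.625% and 0.68% of all counts in 22RV1 with PBS and 0.492% and 0.489% with H2O2, and 0.611% and 0.586% against 0.569% and 0.596% in DU145. In these bulk libraries fewer cells in S phase and less RNA per cell cannot be told apart.

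**Figure D1:**
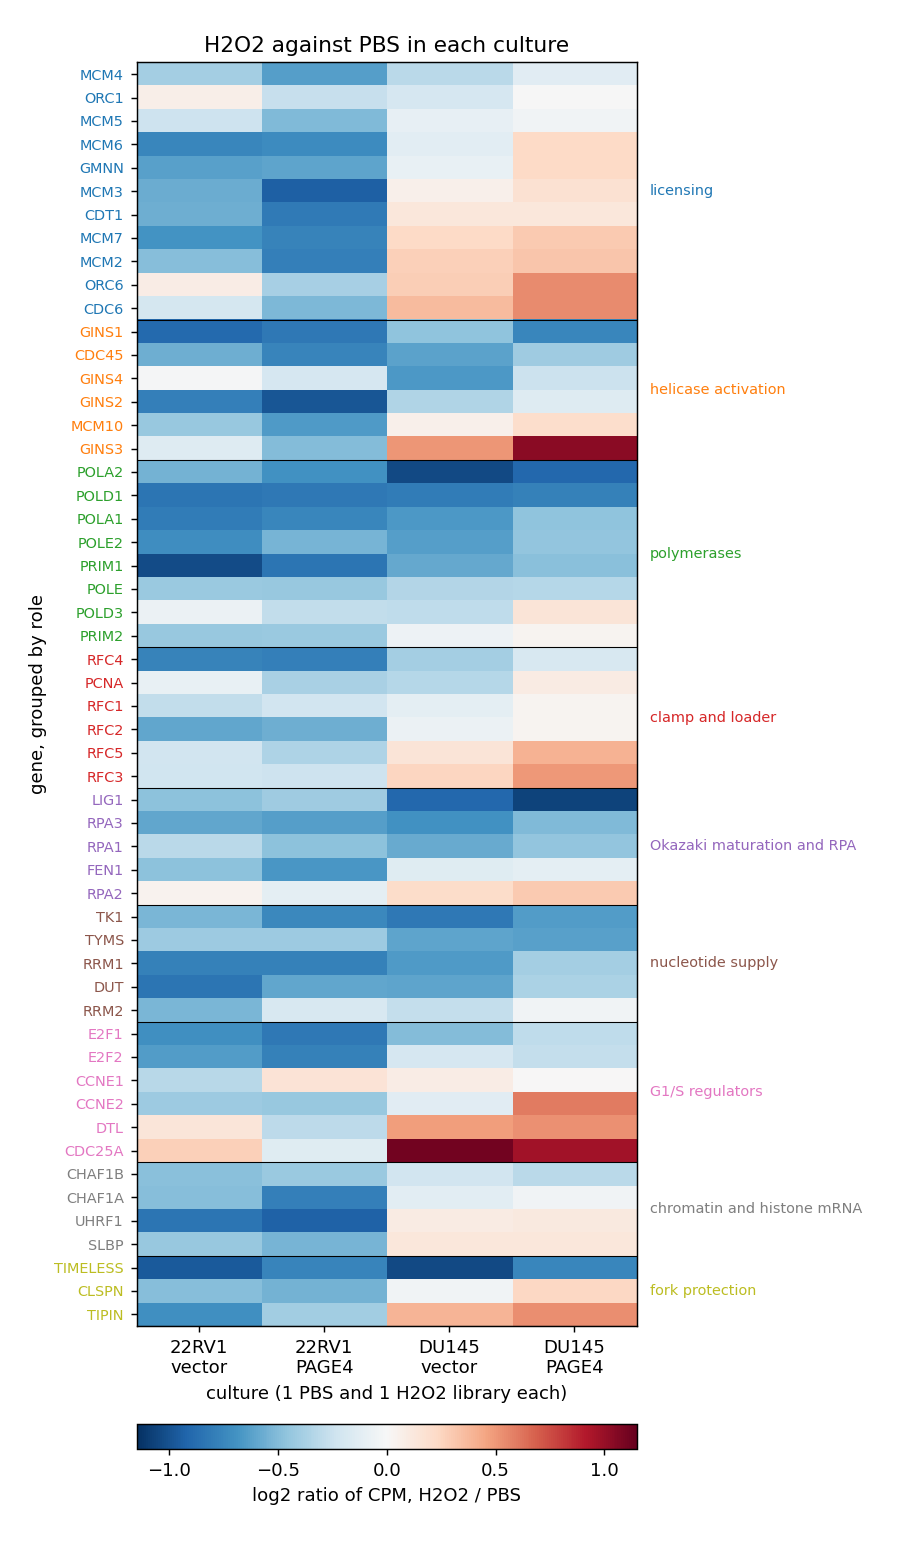
Log2 ratio of H2O2 to PBS for the 54 members (rows, ordered by role) in each of the 4 cultures (columns), from blue (lower) to red (higher). In both 22RV1 columns 48 members are lower, and in the DU145 columns 28 are lower in both and 17 higher in both.

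The spread behind these tests comes from the 2 cultures of a line standing in for replicates, so the p-values measure only how these libraries differ. The DU145 counts depended on single pairs: 11 members were lower without the vector pair and 3, CDC25A, DTL and GINS3, were higher without the PAGE4 pair, while all 21 and all 11 kept their direction. In 22RV1 the count stayed between 40 and 45 with any 1 pair left out. Setting both lines side by side, 20 members were lower in both, 5 (CDC6, MCM2, MCM7, RFC5 and TIPIN) were lower in 22RV1 and higher in DU145, 17 were lower in 22RV1 and not called in DU145, 6 were higher in DU145 and not called in 22RV1, GINS4 was lower in DU145 and not called in 22RV1, and 5 (CCNE1, CCNE2, ORC1, PCNA and POLD3) were called in neither. Of the 5 called in opposite directions, the fall in 22RV1 was no longer called for RFC5 under 4 of the 10 alternative fits, DESeq2 among them, for CDC6 under 2 and for TIPIN under 1, and the rise in DU145 was lost for all 5 without the DU145 PAGE4 pair.

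The difference between the lines was tested directly in the same fit. The H2O2 effect was higher in DU145 than in 22RV1 for 24 of 54 members, against 7.54% of all genes tested and 14.1% of the well expressed ones, and lower for 1, LIG1, against 8.76%. The median difference over the members was 0.39 on the log2 scale, against -0.03 over all genes. It was higher for 8 of the 11 licensing genes, 4 of the 6 clamp and loader genes, 3 of the 4 chromatin and histone mRNA genes, 2 of the 3 fork protection genes and 3 of 6 each for helicase activation and the G1/S regulators. Of the 8 polymerase genes and the 5 nucleotide supply genes none held a called difference by edgeR or by DESeq2 over the 8 libraries, although 3 and 1 of them had an unadjusted p under 0.05. Without the 22RV1 PAGE4 pair PRIM1, DUT and RRM2 were called by edgeR, and without the filter on low counts RRM1 was. Without the DU145 PAGE4 pair 15 of the 24 remained called, and 1 of the 4 clamp and loader genes. CCNE2 overlaps INTS8 and an unnamed gene over 37.1% of its exon length, and TYMS overlaps ENOSF1 and TYMSOS over 47.9%. MCM2 overlaps an unnamed opposite-strand gene over 23.6%, DUT its antisense gene over 14.5% and MCM7 AP4M1 over 7.9%. GINS4 overlaps GPAT4-AS1 and an unnamed gene over 23.4%, GINS3 an unnamed gene over 10.9%, and RFC5 WSB2 and an unnamed gene over 10.6%, all on the opposite strand. TIPIN overlaps a ribosomal protein pseudogene on its own strand over 21.1%. The strand setting of the counting is not given in the sources used here, so reads of such neighbours cannot be told apart.

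**Figure D2:**
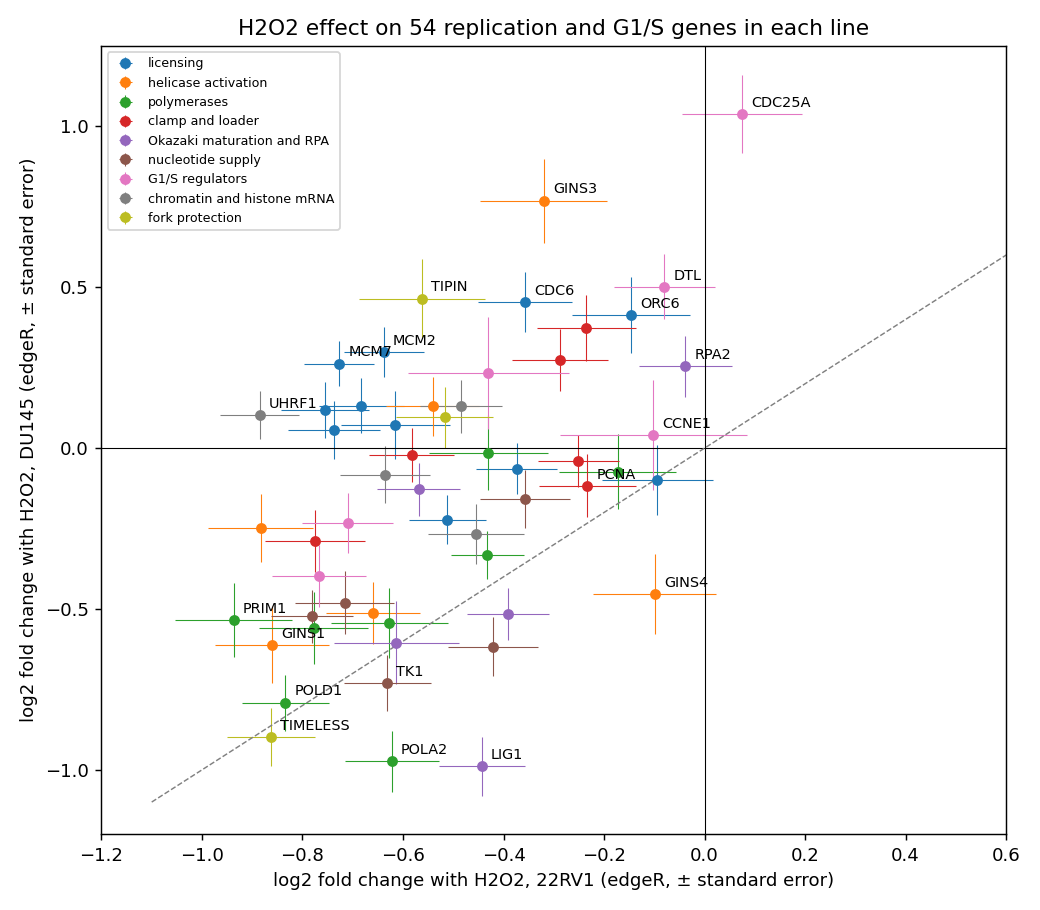
Log2 fold change with H2O2 in 22RV1 (x axis) and in DU145 (y axis), 1 point per member, colored by role, with bars for the SE, a dashed line for equal effects and names beside some members. The points lie left of 0 on x apart from CDC25A, and spread on y from -0.99 (LIG1) to 1.04 (CDC25A).

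Among the licensing genes 9 of 11 were lower in 22RV1, while in DU145 4 were higher and 1 lower, all 4 rises being lost without the PAGE4 pair. MCM7, a subunit of the MCM ring, stood at 603 and 647 CPM with PBS and 374 and 380 CPM with H2O2 in 22RV1, and at 217 and 237 against 254 and 292 CPM in DU145. The groups did not overlap in either line and moved in opposite directions, by -0.73 ± 0.07 (SE, log2) in 22RV1 and 0.26 ± 0.07 in DU145, a difference of 0.99 ± 0.10 (edgeR adjusted p = 2.99e-06). MCM2, another subunit of the ring, went from 294 and 332 to 209 and 193 CPM in 22RV1 and from 310 and 320 to 375 and 400 CPM in DU145. Its effects were -0.64 ± 0.08 and 0.30 ± 0.08, and they differed by 0.94 ± 0.11 (edgeR adjusted p = 1.87e-05). Without the DU145 PAGE4 pair the DU145 values of both genes were no longer called, that of MCM2 being 0.28. MCM3 fell in 22RV1 from 144 and 189 to 96.4 and 98.5 CPM and stood at 377 and 335 against 393 and 379 CPM in DU145, where the groups lay next to each other and the effect of 0.12 ± 0.09 was not called. MCM6 fell in 22RV1 from 83.8 and 105 to 49.9 and 63.2 CPM and had overlapping levels in DU145, 189 and 175 against 174 and 206 CPM. MCM4 fell by 29.9% in 22RV1 and by 14.3% in DU145, where its call was lost under 4 of the 10 alternative fits, DESeq2 and the omission of the vector pair among them. MCM5 fell by 22.9% in 22RV1 and had an effect of -0.06 ± 0.08 in DU145.

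CDC6, which helps ORC to load the ring, stood at 96.2 and 108 CPM with PBS and 83.8 and 75.5 CPM with H2O2 in 22RV1, and at 109 and 102 against 140 and 149 CPM in DU145. Its log2 values were -0.36 ± 0.09 in 22RV1 and 0.45 ± 0.09 in DU145, a difference of 0.81 ± 0.13 (edgeR adjusted p = 0.000391). Without the 22RV1 PAGE4 pair the 22RV1 value was -0.22, and without the DU145 PAGE4 pair the DU145 value was 0.36, and neither was then called, nor was the 22RV1 value of -0.23 when libraries were scaled by total counts. CDT1, the other loading factor, went from 155 and 156 to 105 and 88.8 CPM in 22RV1 and from 134 and 137 to 146 and 150 CPM in DU145. The 22RV1 change of -0.68 ± 0.09 passed the test, and the DU145 value of 0.13 ± 0.09 did not, although its groups did not overlap. GMNN, which encodes geminin, the inhibitor of CDT1, fell in 22RV1 from 44.7 and 43.2 to 29 and 28.3 CPM, and its DU145 levels of 54.4 and 49.2 against 51.3 and 57.6 CPM overlapped. The effects of H2O2 on CDT1 and GMNN were higher in DU145 by 0.82 ± 0.12 and 0.69 ± 0.15 (edgeR adjusted p = 0.000152 and 0.0047). ORC1, the largest origin recognition subunit, was called in neither line, and ORC6 rose in DU145 by 33.3%.

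Of the 6 helicase activation genes 4 were lower in 22RV1, and in DU145 3 were lower and 1 higher. GINS3, a subunit of the GINS complex, stood at 32.7 and 25.9 CPM in DU145 with PBS and 46.4 and 53.1 CPM with H2O2, and in 22RV1 at 49.8 and 53.1 against 44.9 and 37.6 CPM. It rose by 70.4% in DU145, and its log2 values of 0.77 ± 0.13 in DU145 and -0.32 ± 0.13 in 22RV1 (adjusted p = 0.0681, not called, but passing under 4 of the 10 alternative fits) differed by 1.09 ± 0.18, the highest difference among the members (edgeR adjusted p = 0.000459). GINS1 moved the other way, from 31.2 and 35.2 to 22.5 and 20.8 CPM in DU145 and from 53.2 and 52.4 to 28.5 and 29.6 CPM in 22RV1. GINS2 fell in 22RV1 from 63.3 and 68.6 to 36.7 and 34.8 CPM, and went from 48.6 and 45.1 to 38.2 and 40.7 CPM in DU145, where -0.25 ± 0.11 was not called. GINS4 was lower in DU145 by 27.0% and not called in 22RV1. So the 4 genes of this complex did not share 1 direction in DU145. CDC45, which joins GINS on the helicase, fell in both lines, by 36.7% in 22RV1 and 29.9% in DU145, and MCM10, an activator of the assembled helicase, fell by 31.3% in 22RV1 and had 0.13 ± 0.09 in DU145.

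Of the 8 polymerase genes 7 were lower in 22RV1 and 6 in DU145, and all 8 values were negative in both lines. Without the DU145 vector pair 3 of the 6, POLA2, POLD1 and POLE, stayed called in DU145. POLD1, the catalytic subunit of polymerase delta, stood at 104 and 116 CPM with PBS and 57.9 and 65.6 CPM with H2O2 in 22RV1, and at 106 and 106 against 60.6 and 61.8 CPM in DU145. The 4 falls were of like size, -0.83 ± 0.09 in 22RV1 and -0.79 ± 0.09 in DU145 on the log2 scale, and over the 4 pairs together POLD1 fell by 43.1% (edgeR adjusted p = 0.00123). POLA2, the regulatory subunit of polymerase alpha, went from 83.5 and 88.4 to 57.3 and 54.4 CPM in 22RV1 and from 92.9 and 81.5 to 45.1 and 43.6 CPM in DU145. It fell by 49.1% in DU145 and fell by 35.0% in 22RV1, a log2 difference of -0.35 ± 0.13 that was not called (edgeR adjusted p = 0.082). PRIM1, the catalytic primase subunit that starts each new strand with an RNA primer, had the lowest value of all members in 22RV1. Its levels there went from 32.4 and 34.9 to 15.9 and 19.4 CPM, so that it fell by 47.8%, and in DU145 from 46.5 and 41.4 to 30.9 and 29.6 CPM. POLE2, a polymerase epsilon subunit, fell from 22.1 and 22.8 to 13.5 and 15.7 CPM in 22RV1 and from 74.9 and 61.2 to 48.3 and 44.7 CPM in DU145. POLE and POLA1, the catalytic subunits of epsilon and alpha, fell in both lines as well, PRIM2 fell in 22RV1 and was not called in DU145, and POLD3 was called in neither. Exons of PRIM1, POLA2 and POLD1 share 15.1%, 16.8% and 8.63% of their length with another gene on the same strand.

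In the clamp and loader group 4 of 6 genes were lower in 22RV1. In DU145 RFC3 and RFC5 were higher (33.3%) and RFC4 was lower (16.7%), against 28.8% and 31.3% of well expressed genes. The RFC4 call in DU145 was lost under 5 of the 10 alternative fits, DESeq2 among them, the rises of RFC3 and RFC5 were lost without the PAGE4 pair, and in 22RV1 as few as 2 of the 6 were called under an alternative. PCNA, the sliding clamp, stood at 219 and 260 CPM with PBS and 206 and 200 CPM with H2O2 in 22RV1, and at 184 and 160 against 147 and 171 CPM in DU145. Its DU145 groups overlapped, and its values of -0.23 ± 0.10 and -0.12 ± 0.10 were not called (edgeR adjusted p = 0.0835 and 0.393), although the 22RV1 value passed under 4 of the 10 alternative fits. The 5 RFC genes encode the loader that opens the clamp, and their DU145 values were mixed: RFC3 rose by 29.5%, RFC5 rose by 20.9%, RFC4 fell by 18.1%, and RFC1 and RFC2 had log2 values of -0.04 and -0.02.

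LIG1, the ligase that seals Okazaki fragments, was the 1 member called with a lower H2O2 effect in DU145, of 8 members with a negative difference. It fell from 65 and 71.3 to 34.6 and 33.9 CPM in DU145 and from 149 and 168 to 108 and 127 CPM in 22RV1. It fell by 49.6% in DU145 and fell by 26.4% in 22RV1, a log2 difference of -0.55 ± 0.12 (edgeR adjusted p = 0.00556), which was -0.47 and not called without the DU145 PAGE4 pair. FEN1, the flap nuclease that acts before the ligase, fell by 32.6% in 22RV1 and had -0.13 ± 0.08 in DU145. RPA1 and RPA3, subunits of the single-strand binding complex, fell in both lines, and RPA2, the third subunit, rose by 19.4% in DU145, a call lost under 3 of the 10 alternative fits, DESeq2 among them.

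All 5 nucleotide supply genes were lower in 22RV1 and 4 in DU145. TK1, the salvage kinase for thymidine, stood at 122 and 137 CPM with PBS and 84.9 and 82.1 CPM with H2O2 in 22RV1, and at 195 and 203 against 110 and 130 CPM in DU145. TYMS, which makes thymidylate, went from 72.3 and 79.5 to 54 and 59.4 CPM and from 84.2 and 78.4 to 55.4 and 50.7 CPM. DUT, which removes dUTP, went from 69.9 and 84.9 to 39.1 and 56.2 CPM and from 92.6 and 101 to 60.9 and 78.3 CPM. RRM1, the large subunit of ribonucleotide reductase, fell by 41.8% and 30.4%. PBS and H2O2 levels lay apart in both lines for RRM1 as for these 3 genes. How many of all genes tested did the same was not counted. RRM2, its small subunit, fell in 22RV1 from 260 and 247 to 181 and 217 CPM and went from 206 and 203 to 170 and 197 CPM in DU145, where -0.16 ± 0.09 was not called. Without the 22RV1 vector pair the RRM2 value in 22RV1 was -0.20 and not called, and with scaling by total counts it was -0.23 and not called.

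Of the 6 G1/S regulators E2F1 and E2F2 were lower in 22RV1, and in DU145 CDC25A and DTL were higher and E2F1 lower. CDC25A, the phosphatase that activates the cyclin E kinase, stood at 28.5 and 27.7 CPM with PBS and 61.5 and 54 CPM with H2O2 in DU145, and at 31.9 and 31.5 against 38.6 and 28.6 CPM in 22RV1. It rose by 105% in DU145 (log2 1.04 ± 0.12, edgeR adjusted p = 2.86e-06), while its 22RV1 groups overlapped, and the difference of 0.96 ± 0.17 was called (edgeR adjusted p = 0.000733). DTL, the substrate receptor that marks CDT1 for destruction in S phase, rose in DU145 from 74.6 and 69.8 to 104 and 100 CPM and stood at 94.7 and 99.1 against 104 and 80.3 CPM in 22RV1. In 22RV1 both genes were above their PBS partner in vector cells and below it in PAGE4 cells.

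E2F1, an activating E2F factor, fell from 105 and 107 to 64.1 and 60.3 CPM in 22RV1 and from 62.6 and 53.6 to 44.2 and 43.8 CPM in DU145. E2F1 fell by 41.2% in 22RV1 and fell by 24.1% in DU145, and the DU145 value was -0.29 and not called without the vector pair. E2F2, also an activator, fell in 22RV1 from 104 and 126 to 66.7 and 73.3 CPM and went from 54.5 and 51.3 to 47.5 and 42.5 CPM in DU145, where -0.23 ± 0.09 was not called (edgeR adjusted p = 0.0597). CCNE1, which encodes cyclin E1, stood at 7.32 and 4.02 CPM with PBS and 5.86 and 4.49 CPM with H2O2 in 22RV1, and at 16.5 and 14.5 against 17.4 and 14.5 CPM in DU145. CCNE2, for cyclin E2, stood at 24 and 22.4 against 17.9 and 16.5 CPM in 22RV1 and at 12.3 and 9.04 against 11.3 and 13.7 CPM in DU145. Neither cyclin was called, and the CCNE2 value in 22RV1 of -0.43 ± 0.16 had an adjusted p of 0.055, which passed under 5 of the alternatives.

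All 4 genes of the chromatin and histone mRNA group were lower in 22RV1, and in DU145 CHAF1B was called lower, a call lost under 6 of the 10 alternative fits, DESeq2 and the omission of either DU145 pair among them. UHRF1, which carries DNA methylation through replication, fell from 96.3 and 103 to 53.8 and 53.8 CPM in 22RV1, by 45.9%, and stood at 270 and 281 against 288 and 303 CPM in DU145. The DU145 levels did not overlap but differed by only 0.10 ± 0.08 on the log2 scale, and the effects differed by 0.99 ± 0.11 (edgeR adjusted p = 8.13e-06). SLBP, which binds the stem-loop of histone mRNAs, fell from 122 and 124 to 90.4 and 85.6 CPM in 22RV1 and stood at 117 and 118 against 128 and 129 CPM in DU145. CHAF1A and CHAF1B, subunits of the histone chaperone CAF-1, fell by 35.6% and 27.1% in 22RV1, and CHAF1B fell by 16.9% in DU145.

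All 3 fork protection genes were lower in 22RV1, and in DU145 1 was lower and 1 higher, namely TIMELESS and TIPIN, which encode partners in 1 complex. TIMELESS fell in both lines, from 223 and 250 to 114 and 147 CPM in 22RV1 and from 178 and 158 to 86.6 and 93.7 CPM in DU145. Over the 4 pairs it fell by 45.7%, the deepest fall of the members (log2 -0.88 ± 0.09, edgeR adjusted p = 0.0013). TIPIN went from 30.4 and 19.7 to 18.6 and 14.9 CPM in 22RV1 and from 31.6 and 29.2 to 41.4 and 42.4 CPM in DU145. It fell by 32.3% in the first line and rose by 38.0% in the other, a log2 difference of 1.03 ± 0.18 (edgeR adjusted p = 0.000585). Without the DU145 PAGE4 pair the TIPIN rise in DU145 was 0.39 and not called, and without the 22RV1 vector pair its fall in 22RV1 was not called. CLSPN, which passes the checkpoint signal from the fork, fell by 30.1% in 22RV1 and had 0.10 ± 0.10 in DU145.

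**Figure D3:**
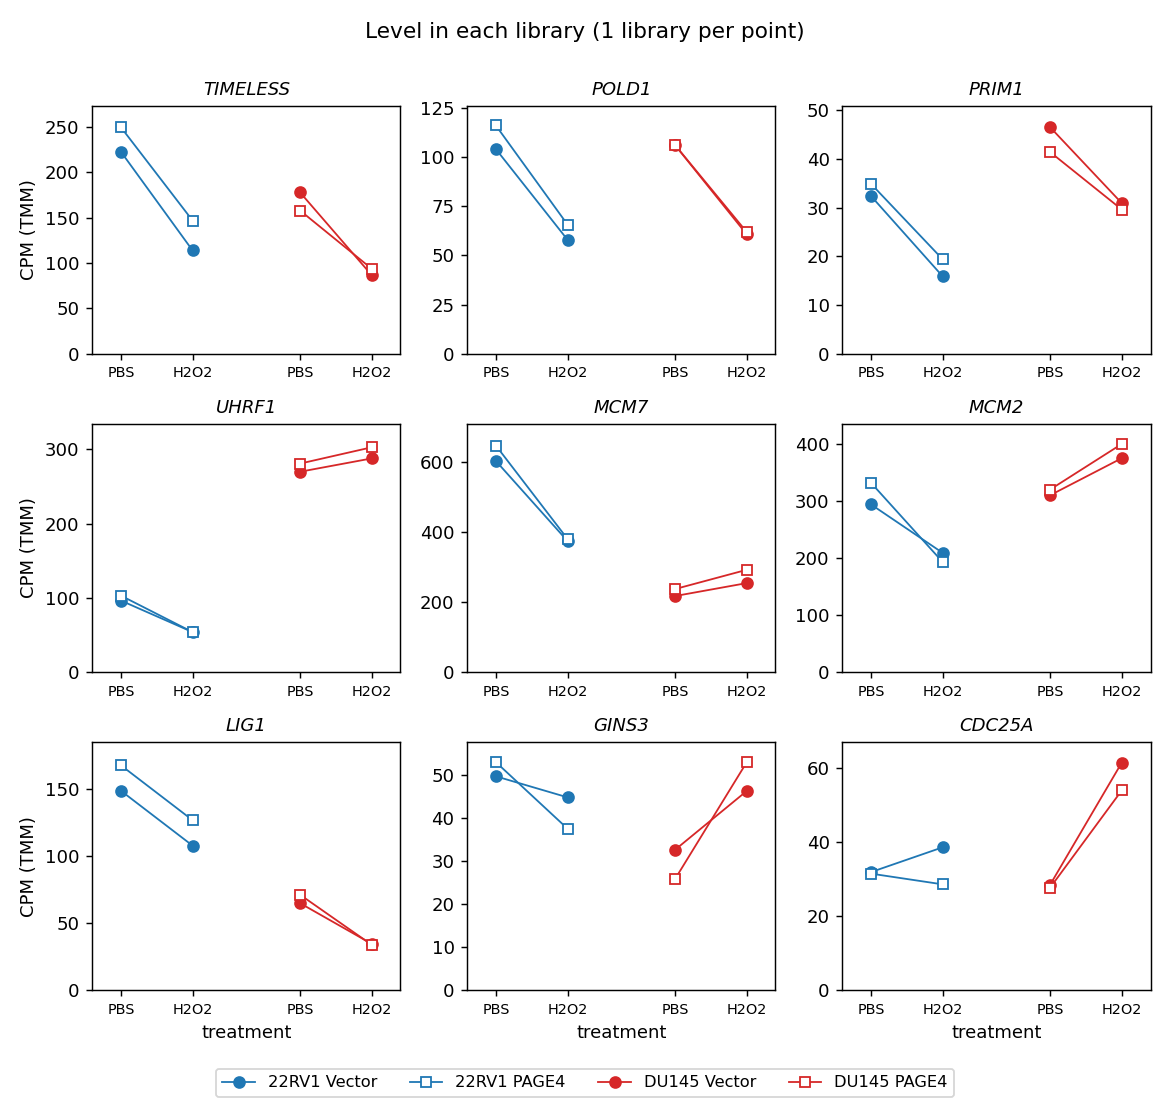
CPM (y axis, from 0) of 9 members in each of the 8 libraries, 1 point per library, with a line joining PBS and H2O2 of a culture, 22RV1 in blue, DU145 in red, vector cells filled and PAGE4 cells open. TIMELESS, POLD1 and PRIM1 are lower with H2O2 in all 4 cultures, UHRF1, MCM7 and MCM2 fall in the 22RV1 cultures and not in the DU145 cultures, LIG1 falls furthest in DU145, and GINS3 and CDC25A rise in DU145.

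Over the 4 pairs together 22 members (40.7%) were lower with H2O2, against 11.2% of all genes tested and 18.5% of the well expressed ones. None was higher by edgeR or by DESeq2, against 8.89% and 14.9% by edgeR, while 27 had an unadjusted p under 0.05 in either direction. The median was -0.31. By role 6 of 8 polymerase genes, 4 of 5 nucleotide supply genes and 3 of 5 Okazaki maturation and RPA genes passed, and 1 of 11 licensing genes, MCM4. The licensing count ran from 0 to 3 over the alternatives: MCM4 was lost with total counts and in 3 of the 4 fits with a pair left out, all but the one without the DU145 PAGE4 pair, and without the filter on low counts MCM3 and MCM6 were called as well.

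PAGE4 was compared with the empty vector within each line and treatment. Each line held 1 vector culture and 1 PAGE4 culture, so an effect of PAGE4 cannot be told apart from a difference between these selected cultures. The PBS and H2O2 pairs of a line come from the same cultures, and the p-values do not measure the spread between cultures. Over the 4 pairs no member was called by edgeR or DESeq2, against 0.174% of all genes tested, and 4 had an unadjusted p under 0.05. In DU145 none was called by either tool, against 0.17%, with 3 at an unadjusted p under 0.05. In 22RV1 3 of 54 members were called, against 4.28% of all genes. By direction 1.85% were lower and 3.7% higher, against 3.27% and 3.58% of the well expressed genes. The count was thus near the background and says nothing particular about the members. TIPIN was lower in PAGE4 cells, 19.7 against 30.4 CPM with PBS and 14.9 against 18.6 CPM with H2O2 (log2 -0.48 ± 0.13, edgeR adjusted p = 0.0361). DUT was higher, 84.9 against 69.9 CPM and 56.2 against 39.1 CPM (0.40 ± 0.10, edgeR adjusted p = 0.0254), and so was MCM6, 105 against 83.8 CPM and 63.2 against 49.9 CPM (0.33 ± 0.09, edgeR adjusted p = 0.050). Both treatments showed the same direction for these 3 genes, which were called on the effect shared by both. DESeq2 called DUT and MCM6. TIPIN was not called without the 22RV1 PBS pair, with a value of -0.31, and DUT and MCM6 were not called without the 22RV1 H2O2 pair. With 22RV1 fitted alone DUT was the 1 called. The PAGE4 effect differed between the lines for none of the 54 by edgeR or DESeq2, against 1.84% of all genes, with 9 at an unadjusted p under 0.05.

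**Figure D4:**
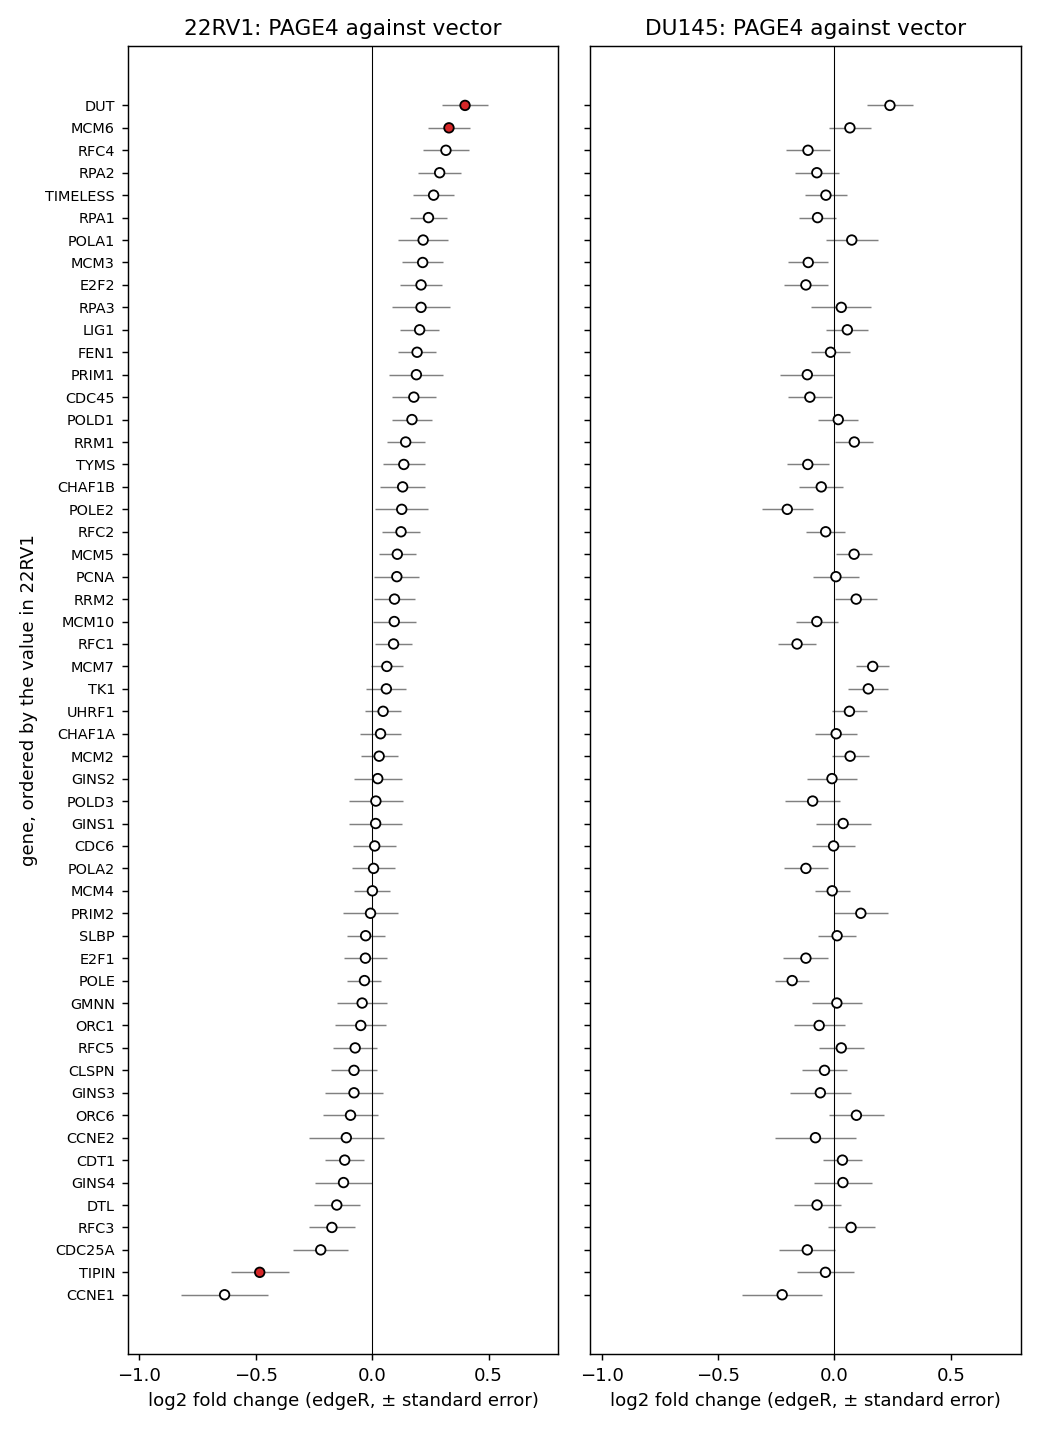
Log2 fold change of PAGE4 against vector cells for each member in 22RV1 and DU145 (error bars, SE), with called members in red. TIPIN, MCM6 and DUT in 22RV1 are the called values, and the others run from -0.63 (CCNE1) to 0.32 (RFC4) in 22RV1 and from -0.22 to 0.24 in DU145.

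By a fold over 1.5 alone, the rule in the study's methods, no member passed between PAGE4 and vector cells given H2O2 in either line, where 23.2% of the genes considered passed in 22RV1 and 15.2% in DU145. With PBS TIPIN and CCNE1 passed in 22RV1, both lower in PAGE4 cells. CCNE1 stood at 4.02 against 7.32 CPM there, and its value over both treatments, -0.63 ± 0.19, was not called (edgeR adjusted p = 0.0682). These single-library folds carry no test. The H2O2 response in PAGE4 cells less that in vector cells, also without a replicate, had a median over members of -0.10 in 22RV1, from -0.46 (ORC6) to 0.48 (CCNE1), and of 0.15 in DU145, from -0.29 (GINS1) to 0.73 (CCNE2). The median over all genes was 0.01 in 22RV1 and -0.002 in DU145. Of the members only CCNE2 and GINS3 in DU145 differed by over 0.5 between cultures in this response. Of the 22418 genes tested 7204 did in DU145 and 7555 in 22RV1, with a median level of 6.8 CPM against 71.5 CPM for the members.

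Between the lines, over 4 pairs matched on construct and treatment, 13 members were lower and 21 higher in DU145 than in 22RV1, against 31.9% and 28.5% of all genes tested and 32.5% and 35.9% of well expressed ones, so the shares of members, 24.1% and 38.9%, were near the background. Without the PAGE4 PBS pair 8 were lower. The 4 pairs come from 2 cultures of each line, each giving a PBS and an H2O2 library, so they are not independent of each other. UHRF1 was the highest in DU145 relative to 22RV1 (log2 1.96 ± 0.20), followed by POLE2 (1.63 ± 0.13), CCNE1 (1.57 ± 0.18), MCM3 (1.55 ± 0.20) and MCM6 (1.36 ± 0.18). LIG1 was the lowest (-1.49 ± 0.14), followed by MCM7 (-0.97 ± 0.20), E2F2 (-0.88 ± 0.14), CCNE2 (-0.80 ± 0.19) and E2F1 (-0.69 ± 0.12), and all 10 passed (edgeR adjusted p up to 0.00685). For these 10 genes every DU145 library lay on 1 side of its 22RV1 counterpart, which follows largely from their choice by this same comparison. The 2 E-type cyclins therefore differed between the lines in opposite directions. Among the MCM ring genes MCM3, MCM4, MCM5 and MCM6 were higher and MCM7 was lower in DU145.

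Levels of different genes were compared per length, as CPM divided by the exon length in kilobases (RPKM), averaged over the 2 PBS libraries of a line. PCNA was first in both, at 171 RPKM in 22RV1 and 123 in DU145. MCM7 was second in 22RV1 at 126 RPKM and 10th of 54 in DU145 at 45.8, while TK1 followed it at 70.2 in 22RV1 and was second at 108 in DU145. Of the other ring subunits MCM2 had 66.3 and 66.7 RPKM in the 2 lines, MCM3 45.6 and 97.7, MCM4 42.7 and 75.4, MCM5 30.8 and 45.2, and MCM6 22.8 and 44. The 6 ring genes thus ranged 22.8 to 126 RPKM in 22RV1 and 44 to 97.7 in DU145. CCNE1 was last in 22RV1 at 2.3 RPKM and CCNE2 last in DU145 at 2.43, and in DU145 POLA1 at 2.49 lay within the spread of the CCNE2 libraries.

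**Figure D5:**
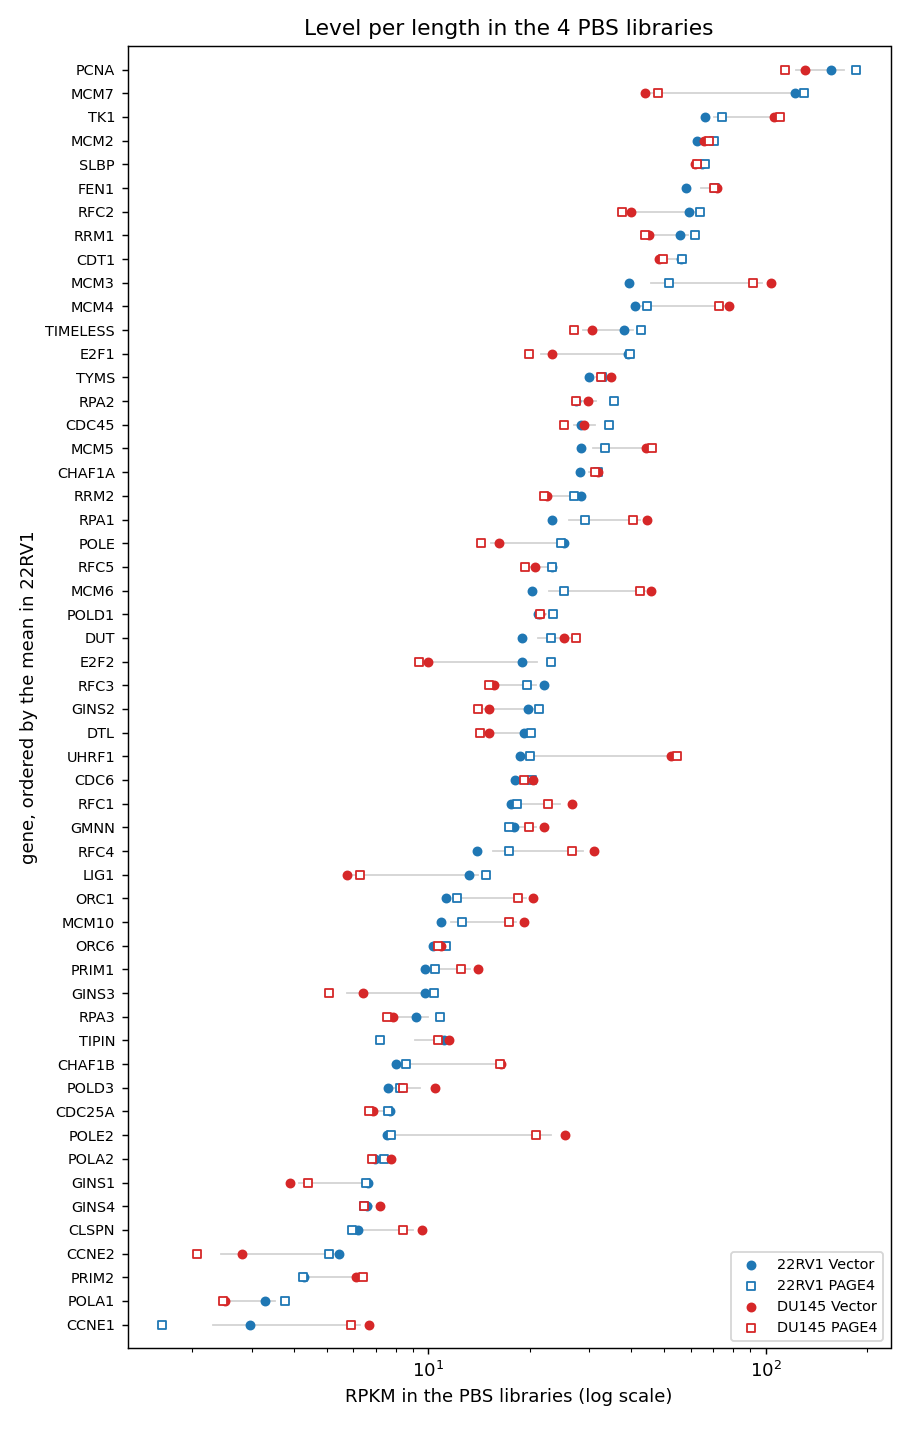
RPKM (log axis) of each member in the PBS libraries of 22RV1 (blue) and DU145 (red), 1 point per library, filled for vector and open for PAGE4 cells, with a gray line between the means of the lines. PCNA is highest in both lines, MCM7 is higher in 22RV1, and CCNE1 and CCNE2 are the lowest in 22RV1 and DU145 respectively.

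A separate list of 50 further replication and G1/S genes, 49 of them tested, was set beside the members. In 22RV1 34 were lower with H2O2 (69.4%) and 2 higher (4.08%), against 14.9% and 12.8% of all genes tested, and in DU145 20 were lower (40.8%) and 7 higher (14.3%), against 19.8% and 16.9%. TOP2A, the topoisomerase that untangles sister DNA, fell furthest in both lines, by 1.84 ± 0.08 and 1.48 ± 0.08 on the log2 scale (edgeR adjusted p = 1.12e-10 and 6.98e-10). In 22RV1 it was followed by CCNA2, the S-phase cyclin (-1.33 ± 0.09), ATAD2, TICRR and E2F8, and CDK6 (0.52 ± 0.12) and POLD4 (0.70 ± 0.16) were higher. In DU145 CHTF18 (-1.01 ± 0.11), ASF1B (-0.88 ± 0.09) and TICRR were also among the 5 lowest, and TOP1 (0.87 ± 0.08), CCND1, which encodes cyclin D1 (0.85 ± 0.09), POLE3, POLE4 and USP1 were the highest of the 7 that rose. The H2O2 effect was higher in DU145 for 18 of the 49 (36.7%), against 7.54% of all genes and 14.1% of the well expressed ones, CCND1 foremost (1.26 ± 0.13). The effect was lower for 3 (6.12%, against 8.76% and 14.3%), POLD4 and CCND3 among them. With PAGE4 CDC7 (0.49 ± 0.12) and CCND1 (0.33 ± 0.09) were higher in 22RV1 (edgeR adjusted p = 0.0296 and 0.0445), 4.08% of the list against 4.28% of all genes, and in DU145 none of the 49 was called by edgeR, with 1 at an unadjusted p under 0.05. Of the 38 with a promoter entry 7 held a motif match (18.4%).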

How the data were processed

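Gene counts of the 8 libraries were analysed as deposited. They are raw counts per gene that the authors made with FeatureCounts 1.6.0 after HISAT2 2.1.0 alignment to GRCh38. The annotation, strand and multi-mapping settings are not given in the sources used here. Extraction is given as Trizol in the labels and as a column kit in the methods. Counts were scaled by TMM, filtered by filterByExpr and tested with edgeR 4.0.16 in R 4.3.3, with DESeq2 1.42.0 as an alternative. H2O2 was fitted with the culture as block, over 4 pairs (3 residual degrees of freedom) or per line (2), PAGE4 with line and treatment as block, and line with construct and treatment as block. Calls required a Benjamini-Hochberg adjusted p under 0.05 over all genes tested. SEs came from the F statistics. Ratios within a pair used CPM + 0.05. The fold rule used DESeq2 size factors within a line, a pseudocount of 0.5 and a mean of at least 10 normalized counts. RPKM and exon overlaps used GENCODE v44. Values in every library were given for the 5 lowest and 5 highest called members of each comparison and for 13 regulators. The members and lists were chosen with earlier results of these data known, and the background of well expressed genes was added after seeing the data. The test was checked on simulated counts. Alternatives were other scalings, no filter, DESeq2, 1 line alone, a fold limit and each pair left out. Values of some genes on the marker and further replication lists are not reported here.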

Additional observations from a re-analysis of the deposited data

Results flagged for a closer look

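The H2O2 effect differed between the lines, by the test of the difference itself, for 25 of the 54 members. The named ones were LIG1 (log2 difference, DU145 minus 22RV1, of -0.546), CDC25A (0.964), UHRF1 (0.988), MCM7 (0.99), TIPIN (1.027) and GINS3 (1.09). With 1 library per condition no group was large enough to look for single libraries that stand apart.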

How the results depend on the processing

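Of the counts of called members under the alternatives, 99 stayed within 1.5 times the value given and 12 did not. The members called in these counts kept their direction under every alternative. Some values that were not called had opposite signs in the pairs of a line, so their sign depended on the pair left out. PCNA in DU145 had log2 ratios of -0.325 (vector pair) and 0.091 (PAGE4 pair). For CDC25A in 22RV1 the ratios were 0.276 and -0.137. With a fold over 1.5 required as well, the members lower with H2O2 numbered 24 in 22RV1, 8 in DU145 and 12 over the 4 pairs, those higher in DU145 numbered 2, those called for PAGE4 in 22RV1 numbered 0, and those lower in DU145 than in 22RV1 numbered 6. Without the filter on low counts 1 member, DUT, was called for PAGE4 over the 4 pairs, and with 1 line fitted alone 1 member, DUT, was called for PAGE4 in 22RV1. Leaving out 1 pair at a time gave 11 to 21 members lower and 3 to 11 higher with H2O2 in DU145, 15 to 29 with a higher H2O2 effect in DU145 and 8 to 11 lower in DU145 than in 22RV1. The lone pair left in a line is then assumed to vary like the other line. Scaling by total counts moved the median of all genes from -0.002 to 0.116 for H2O2 in 22RV1 and from -0.078 to -0.277 between lines. Members lower in 22RV1 with H2O2 then numbered 37. The median over all members was then -0.425 for H2O2 in 22RV1 and 0.061 between lines, against -0.551 and 0.26 with TMM. With 1 library per condition no interaction of PAGE4 with H2O2 within a line could be tested.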
